A study of Mus musculus with 12 samples.

Results

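The BCL2 family apoptosis regulators described here are 9 genes taken by name: the survival genes Bcl2, Bcl2l1 and Mcl1, the effector gene Bak1, and the BH3-only genes Bcl2l11, Bid, Bad, Bik and Hrk. All 9 were found by symbol among the 41214 genes of the count files, and 8 of them held enough counts to be tested. Bax, Bbc3 and Pmaip1, known targets of p53, are not among them. Proteins of this family decide whether the outer mitochondrial membrane of a cell is opened. Survival proteins hold the pore-forming effectors in check, and BH3-only proteins, named after the short helix they share with the rest of the family, bind survival proteins or effectors when a cell is stressed or loses its growth signals. In myeloid leukaemia the balance between these groups is the target of drugs that occupy the BH3 groove of survival proteins.

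Leukaemic cells were obtained from mice labelled C57/BL6 NUP98-HOXD13, so that every mouse of the study shared this transgene, which joins NUP98, from the nuclear pore, to the homeobox gene HOXD13. The KD mice were homozygous for the Gfi1 KD allele (KD/KD), and the mice they were set against, called KI here, carried 1 Gfi1 KI allele beside a wild-type allele (KI/wt), with 2 replicates of each genotype. The labels of the RNA libraries give only KD with homo and KI with het, and the alleles in full stand on the study's chromatin libraries. The labels do not say that replicates are separate mice, but those of each genotype differed in sex-linked genes (values below), so that they are called mice here. Gfi1 encodes a zinc finger repressor of blood progenitors, and mouse lines of these names are known to carry human GFI1 coding sequence at the mouse locus. The sources used here give neither the promoter of the transgene nor the age of the mice. RNA was sequenced from 1 library per mouse, and the study's question, per its title, was Gfi1 as a predictive marker and target in myelodysplasia and acute myeloid leukaemia. With 2 mice against 2, an exact permutation test of a single value cannot go below p = 0.333 (two-sided), so tests come from a model fitted across all genes.

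Counts assigned to genes ranged from 4581593 to 11934542 per library, and 3 counts corresponded to between 0.212 and 0.696 CPM (counts scaled to library size, and for composition by TMM). KI replicate 1 stood apart: it was the shallowest library, 88.3% of its uniquely aligned reads fell in no gene, against 63.2% to 68.3% in the other 3, and 1688 sensory receptor genes, silent in blood, added up to 970 CPM in it, against 137 to 232 CPM in the other 3. The differences of members that moved without it are also given without it. Mouse Gfi1 lay at 7.22 and 1.12 CPM in the KD mice and at 36.2 and 89.0 CPM in the KI mice, with both KD mice below both KI mice (log2 fold change -3.89 ± 0.95, SE; edgeR adjusted p = 0.518). These are reads assigned to the mouse gene. Where the locus carries human coding sequence, they do not measure how much GFI1 each genotype makes. The markers fixed for myeloid and progenitor cells were detected in all 4 libraries, with none of 13 at 0. They summed to 4450 and 5350 CPM in KD and 3320 and 4330 CPM in KI. The libraries are stranded, and no source used here states how the counting treated strand. Xist had 9795 and 6613 counts in the second replicate of KD and KI. Tsix, transcribed across it from the opposite strand, had 10 counts in each. Reads of this overlapping pair were thus not counted for the opposite strand. The pair cannot tell counting of the sense strand from counting without regard to strand.

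No member passed the genome-wide test between KD and KI. Of the 8 tested members 0 were called by edgeR's quasi-likelihood test with Benjamini-Hochberg adjustment over 13822 genes, where 0% of all genes were called, although 1331 genes had an unadjusted p under 0.05. Hrk was the 1 member among these 1331. DESeq2 called 1.03% of the genes and edgeR with the replicate number as a block 0.0506%, and neither called a member. Both KD libraries lay above both KI libraries for 1 of the 8 tested members, Bid, where 14.5% of all tested genes did so. Both KD libraries lay below both KI libraries for 2 members, Bcl2l1 and Hrk, where 23.5% of all tested genes did so. These shares are near the background at this number of genes. Hrk entered the test through its KI libraries alone (the filter's minimum of 0.946 CPM was met in 0 KD and 2 KI libraries), so its place in this count was partly fixed by the filter. In bulk samples, fewer cells of a type and less RNA per cell cannot be told apart, and this holds for each value below.

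**Figure D1:**
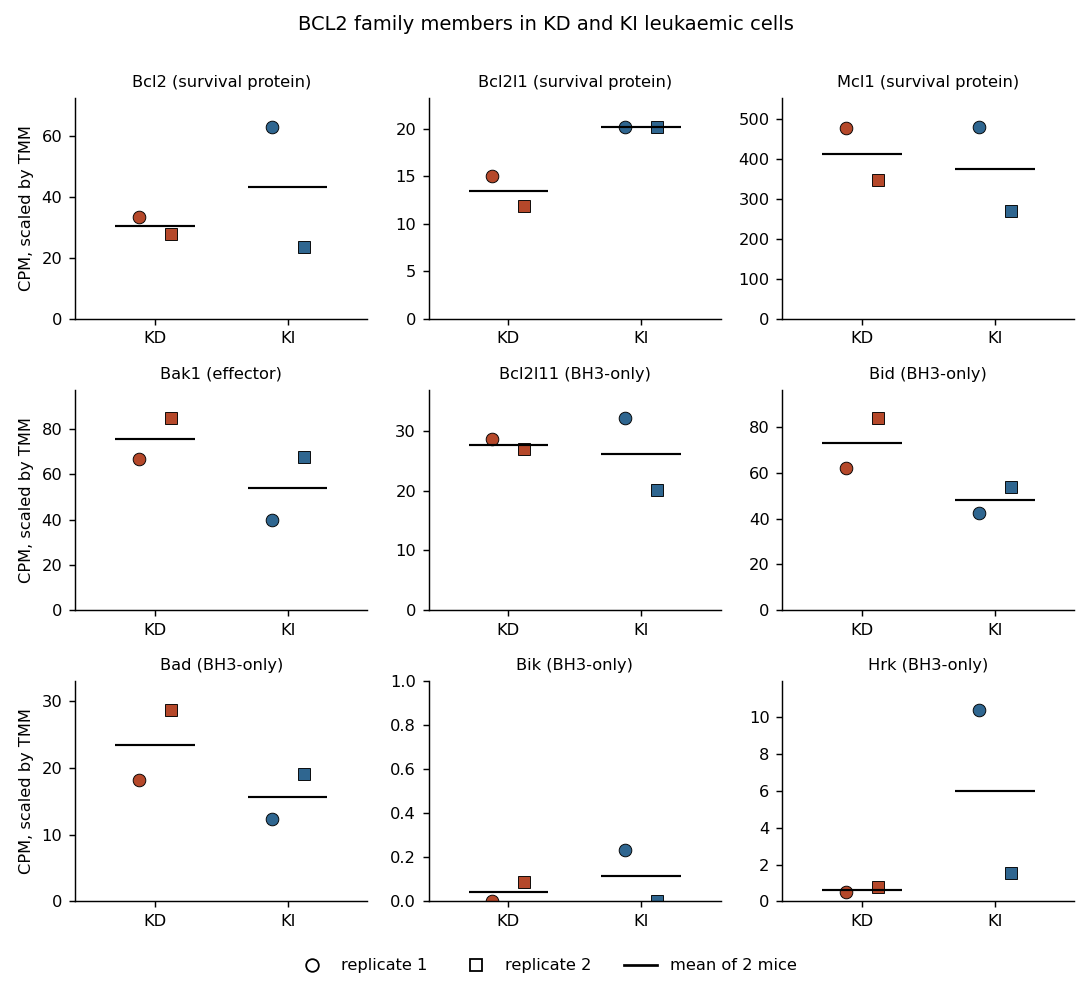
CPM (scaled by TMM) of the 9 members in each library, on linear axes that start at 0, with 1 point per mouse and a line at the mean of the 2 mice of a genotype. Bcl2l1 lay at 15.0 and 11.9 CPM in KD and 20.2 CPM in both KI mice, and for Bcl2 and Hrk KI replicate 1 was far above the other 3 libraries.

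Among the survival genes, Bcl2l1 was the 1 whose groups did not overlap. Bcl2l1 (ENSMUSG00000007659, chromosome 2 in RefSeq's annotation of GRCm38.p6, the build of all coordinates here, 152758732 to 152833803, protein-coding) encodes BCL-XL, the survival protein on which maturing red cell precursors and platelets depend. It lay at 15.0 and 11.9 CPM in the KD mice and at 20.2 CPM in each KI mouse. Both KD mice were lower than both KI mice, which did not differ from each other at this precision. The means were 13.5 ± 2.18 CPM in KD and 20.2 ± 0.00604 CPM in KI (SD, n = 2 each). The log2 fold change, KD over KI, was -0.58 ± 0.35 (SE), with a 95% interval of -1.45 to 0.29 (edgeR adjusted p = 0.677). Over the pooled counts, 350 in KD and 257 in KI, the ratio KD over KI at equal depth was 0.675, and counting error alone gave it an exact binomial 95% interval of 0.573 to 0.796. That interval lies below 1 while the model's, which includes the spread between mice, spans no difference. The estimate was negative in each of 13 alternative settings, from -0.76 to -0.16. With library size as the only scaling, the setting that gave -0.16, the groups overlapped. That setting does not correct for composition, and in it the median over all tested genes was 0.37, against -0.06 with TMM.

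Markers of the red cell lineage moved with Bcl2l1. The 14 measured erythroid markers summed to 75.9 and 4.41 CPM in the KD libraries, against 553 and 542 CPM in the KI libraries. All 14 were lower in both KD libraries, as were 23.5% of all tested genes. Among the 14 markers, Epor and Hba-a1 were at 0 in at least 1 library. The summed markers of secondary granules and mature neutrophils also moved with Bcl2l1, at 3580 and 1620 CPM in KD against 16200 and 17100 CPM in KI. Of these 12 markers 11 were lower in both KD libraries, beside the same 23.5% of all tested genes. Mmp8 overlapped, at 494 and 401 CPM in KD and 551 and 381 CPM in KI. The part of either cell type in the Bcl2l1 difference was not tested. Between the KD mice the erythroid sum was 75.9 against 4.41 CPM while Bcl2l1 was 15.0 against 11.9 CPM.

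Promoter windows were at hand for 3 starts of Bcl2l1 in GRCm38.p6. All 3 lie inside the gene, whose 5' end at 152833803 is in no window and was not searched. Because the genotypes differ in Gfi1, the 12 promoter windows listed for 8 members were searched on both strands for AAATCA, which holds the core that GFI1 binds. A window runs from 250 bases before to 50 after a listed start, and the listed starts need not be all starts of a gene. Because erythroid markers moved with Bcl2l1, the motif of the erythroid GATA factors, AGATAA, was also searched. AAATCA was found in 1 of the 12 windows and in 14.0% of all 32851 windows, and AGATAA in 1 of the 12 and in 11.2% of all. Both matches were at Bcl2l1, at different starts. Each is shown here in a stretch of 30 bases with the match in capitals, read on the minus strand, the gene's own strand. A match of this length is a description of the letters, not a binding site.
Bcl2l1, GFI1 core, chr2:152830892-152830921: gtggtctttccgAAATCAgatcacagatcc
Bcl2l1, GATA, chr2:152828513-152828542: attgtgacccaaAGATAAagagagcagagg

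Bcl2 and Mcl1 overlapped between the genotypes, and their KI mice differed more than the genotypes did. Bcl2 (ENSMUSG00000057329, chromosome 1, 106538176 to 106714290), the founding survival gene and the protein that venetoclax binds, lay at 33.3 and 27.8 CPM in KD and at 62.9 and 23.4 CPM in KI. KI replicate 1 was the high library, and KI replicate 2 was below both KD mice. The log2 fold change was -0.49 ± 0.51 (SE; 95% interval -1.76 to 0.78; edgeR adjusted p = 0.891). It became 0.53 without KI replicate 1 and -0.97 without KI replicate 2, so that the sign of the Bcl2 estimate rested on 1 KI library. T cells express Bcl2 strongly, and the 12 T cell markers, none at 0 in a library, summed to 17.9 and 27.9 CPM in KD against 101 and 78.5 CPM in KI. In KI replicate 2 the sum rested largely on Cd3e, at 37.3 CPM, and Lck was at 1.90 CPM there, below 2.76 and 3.71 CPM in the KD libraries. Of the 11 tested T cell markers 7 were lower in both KD libraries, as were 23.5% of all tested genes. The 8 B cell markers summed to 19.3 and 24.0 CPM in KD against 45.7 and 33.0 CPM in KI, with 1 of the 8 at 0 in each KD library. Most of that sum in KI replicate 2 was Cd79b. It overlapped between the genotypes, at 13.1 and 16.8 CPM in KD and 10.4 and 28.1 CPM in KI. Of the 4 tested B cell markers 0 were lower in both KD libraries, beside the same 23.5% of all tested genes. The part of these cells in the Bcl2 values was not tested, nor was that of the sensory receptor background of KI replicate 1 in the marker sums.

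Mcl1 (ENSMUSG00000038612, chromosome 3, 95656944 to 95663179) encodes a short-lived survival protein that blood stem cells and granulocyte precursors need. It held the most counts of any member in every library, 6750 and 4012 in KD and 2076 and 2286 in KI, a statement on reads and not on transcripts, since transcript lengths were not used here. Its level was 478 and 347 CPM in KD, against 481 and 271 CPM in KI. The first replicate was the higher one in each genotype, and the genotypes overlapped fully. The log2 fold change was 0.13 ± 0.40 (SE), with a 95% interval of -0.87 to 1.14 (edgeR adjusted p = 0.991). It was 0.75 without KI replicate 1 and turned negative, at -0.12 and -0.14, without KD replicate 1 or without KI replicate 2. The sign of the Mcl1 estimate thus rested on single libraries.

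The effector gene Bak1 (ENSMUSG00000057789, chromosome 17, 27019812 to 27028627) encodes BAK, which sits in the outer mitochondrial membrane and forms pores there once released. Bak1 lay at 66.9 and 84.8 CPM in KD and at 39.9 and 67.9 CPM in KI. KI replicate 1 was the low library, and KI replicate 2 lay just above KD replicate 1. Its log2 fold change was 0.49 ± 0.36 (SE; 95% interval -0.41 to 1.39; edgeR adjusted p = 0.771). It was positive in all 13 alternatives, from 0.29 without KI replicate 1 to 0.99 when KI replicate 2 was left out. With RLE factors, upper quartile factors, library size only or the 10 highest loci that are not protein-coding left out, both KD libraries lay above both KI libraries for Bak1.

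Among the BH3-only genes, Bid lay higher in both KD mice, Bad and Bcl2l11 overlapped, Hrk lay lower and Bik was at the limit of detection. Bid (ENSMUSG00000004446, chromosome 6, 120893119 to 120917062) encodes the protein that caspase-8 cleaves to carry a death receptor signal to mitochondria. Its level was 62.3 and 83.8 CPM in KD, against 42.4 and 53.6 CPM in KI. The lower KD mouse stood above the higher KI mouse by less than the KD mice differed from each other. The means were 73.1 ± 15.2 CPM in KD and 48.0 ± 7.91 CPM in KI (SD, n = 2 each), and the log2 fold change was 0.60 ± 0.31 (SE), with a 95% interval of -0.17 to 1.37 and adjusted p = 0.594 in edgeR's test. The unadjusted p was 0.102 in that model fitted across all genes, rank 2377 of 13822. In the edgeR fit with the replicate number as a block, a pairing that the labels do not state, it was 0.0375 (adjusted p = 0.39). The estimate ran from 0.37 to 1.04 over 13 alternatives, and Bid was the 1 member higher in both KD libraries under each of the 5 scalings.

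The 250 bases before the Bid start that has a promoter window are shown because Bid was that member. GC boxes (GGGCGG or its reverse complement, which SP1-like factors bind) are in capitals. This start lies inside the gene, whose 5' end is at 120917062, so most of the stretch is within the annotated gene. GC boxes were found in 7 of the 12 member windows and in 35.7% of all windows. The first of 3 in Bid begins 66 bases before that start. The sequence is from RefSeq, GRCm38.p6, minus strand.
Bid, chr6:120916825-120917074: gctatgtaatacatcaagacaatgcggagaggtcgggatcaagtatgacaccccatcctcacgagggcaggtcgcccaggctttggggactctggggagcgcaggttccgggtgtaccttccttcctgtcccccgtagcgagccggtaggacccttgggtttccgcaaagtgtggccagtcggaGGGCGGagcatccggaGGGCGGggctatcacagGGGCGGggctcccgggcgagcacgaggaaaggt

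Bad (ENSMUSG00000024959, chromosome 19, 6941861 to 6951905) encodes a sensor that survival kinases such as AKT and PIM keep phosphorylated and inactive. It lay at 18.1 and 28.7 CPM in KD, against 12.3 and 19.1 CPM in KI. KD replicate 1 fell between the KI mice, so the genotypes overlapped. Bad had a log2 fold change of 0.57 ± 0.42 (SE; 95% interval -0.48 to 1.62; edgeR adjusted p = 0.775), with 0.20 to 1.01 over the 13 alternatives.

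Bcl2l11 (ENSMUSG00000027381, chromosome 2, 128126038 to 128162547) encodes BIM, the BH3-only protein that removes blood cells deprived of cytokines. Its level was 28.7 and 27.0 CPM in KD, against 32.2 and 20.2 CPM in KI. The KD mice lay between the KI mice. For Bcl2l11 the log2 fold change was 0.09 ± 0.36 (SE), with a 95% interval of -0.80 to 0.98 and adjusted p = 0.993 in edgeR's test, and it took either sign, being -0.14 without KI replicate 2 and 0.60 when KI replicate 1 was left out. FOXO factors are known to drive Bcl2l11 when survival signals fade. Their motif TGTTTAC was found, on either strand, in 1 of the 12 member windows, at the upstream start of Bcl2l11, and in 3.65% of all windows. The 250 bases before that start are given for this match, on the plus strand, with GC boxes and the FOXO motif (read here as its reverse complement) in capitals. Foxo3, the FOXO gene tied most closely to Bcl2l11, lay at 124 and 111 CPM in KD, against 114 and 83.4 CPM in KI.
Bcl2l11, chr2:128125788-128126037: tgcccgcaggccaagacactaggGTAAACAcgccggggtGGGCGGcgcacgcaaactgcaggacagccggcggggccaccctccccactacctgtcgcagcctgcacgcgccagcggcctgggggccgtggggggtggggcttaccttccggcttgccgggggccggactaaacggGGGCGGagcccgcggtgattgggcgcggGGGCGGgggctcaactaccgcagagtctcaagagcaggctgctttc

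Hrk had the largest fold change of the 8 tested members and the lowest counts. Hrk (ENSMUSG00000046607, chromosome 5, 118169764 to 118189478) encodes Harakiri, a BH3-only protein best known from neurons deprived of growth factor. It had 7 and 9 counts in KD, or 0.495 and 0.778 CPM, against 45 and 13 counts in KI, or 10.4 and 1.54 CPM. KI replicate 1 was far above the other 3 libraries, which lay within a few counts of each other. Hrk entered the test through its KI libraries alone, so the direction and the p-values that follow were partly fixed by the filter. The log2 fold change was -3.19 ± 1.13 (SE), with a 95% interval of -6.00 to -0.38, an unadjusted p of 0.0325 in the edgeR model and adjusted p = 0.518. It was -1.15 without KI replicate 1 and -3.96 without KI replicate 2, where edgeR gave adjusted p = 0.0351 with KI replicate 1 as the lone KI mouse, assumed to vary like the KD mice. The same library held the high sum of sensory receptor genes, 970 CPM against 232 CPM in KI replicate 2, and the part of that background in the Hrk value was not tested.

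Bik (ENSMUSG00000016758, chromosome 15, 83526790 to 83544635), a BH3-only gene known from epithelial and B cells, had 0 and 1 count in KD, and 1 and 0 counts in KI. All 4 values are under the floor of 3 counts, so Bik was not detectable above that limit in either genotype and no fold is given.

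**Figure D2:**
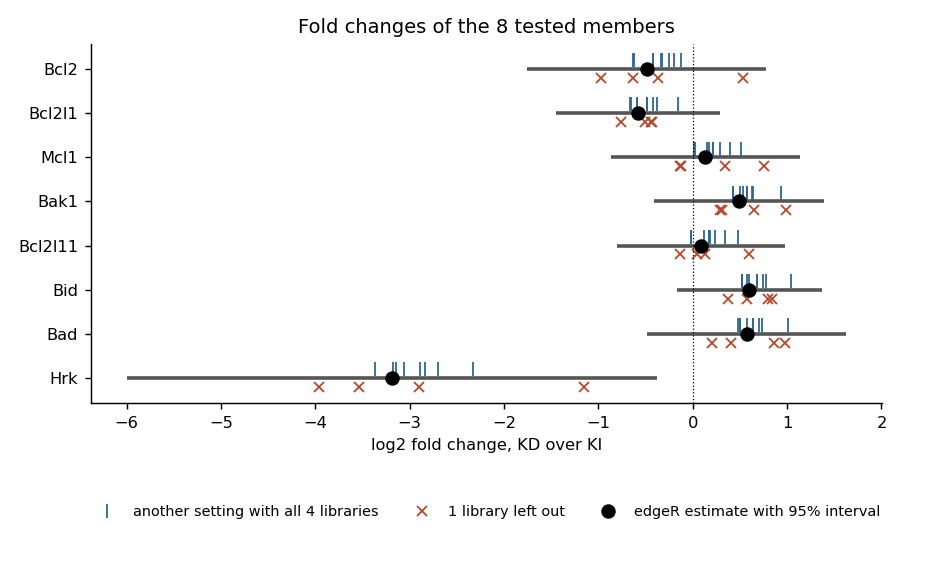
Log2 fold change, KD over KI, of the 8 tested members: the edgeR estimate with its 95% interval (black), the same under other settings with all 4 libraries (blue ticks) and with 1 library left out (red crosses). The intervals of all members but Hrk span 0, and the crosses of Bcl2, Mcl1 and Bcl2l11 fall on both sides of it. Hrk met the filter's minimum in its KI libraries alone.

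Ratios of 2 members within a library need no scaling between libraries. They compare reads and not molecules, so they can be read between libraries only. Bcl2l1 to Bak1 was 0.224 and 0.141 in KD, against 0.506 and 0.297 in KI. Both KD mice were lower, with mean log2 ratios of -2.49 ± 0.48 in KD and -1.37 ± 0.54 in KI (SD, n = 2 each), a difference of -1.13 that ranged from -1.51 to -0.74 as each library was left out. Bcl2l1 to Bcl2l11 was also lower in both KD mice, at 0.523 and 0.442 against 0.626 and 1.00, a log2 difference of -0.72 (-1.06 to -0.38).

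Ratios of Bcl2 and Mcl1 to Bcl2l11 overlapped between the genotypes. Bcl2 to Bcl2l11 was 1.16 and 1.03 in KD and 1.95 and 1.16 in KI, with KI replicate 1 as the high one. For Mcl1 to Bcl2l11 the values were 16.7 and 12.9 in KD and 14.9 and 13.4 in KI, a log2 difference of 0.05. Another 6 ratios were chosen after the values of the members were seen. Of these, Bcl2l1 to Bid was lower in both KD mice, at 0.241 and 0.142 against 0.475 and 0.376 in KI, a log2 difference of -1.19 (-1.57 to -0.81) and the farthest from 0 of the 10 ratios. Bcl2l1 itself was lower and Bid higher in both KD mice, so the direction of their ratio was fixed by this choice. All 3 ratios that were lower in both KD mice have Bcl2l1 as the numerator and so share its counts. The other 5 overlapped, with log2 differences of -0.93 for Bcl2 to Bid, -0.43 for Mcl1 to Bid, -0.36 for Mcl1 to Bak1, 0.07 for Bid to Bak1 and -0.03 for Bad to Bid. Ratios were not tested, since the smallest exact permutation p is 0.333.

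**Figure D3:**
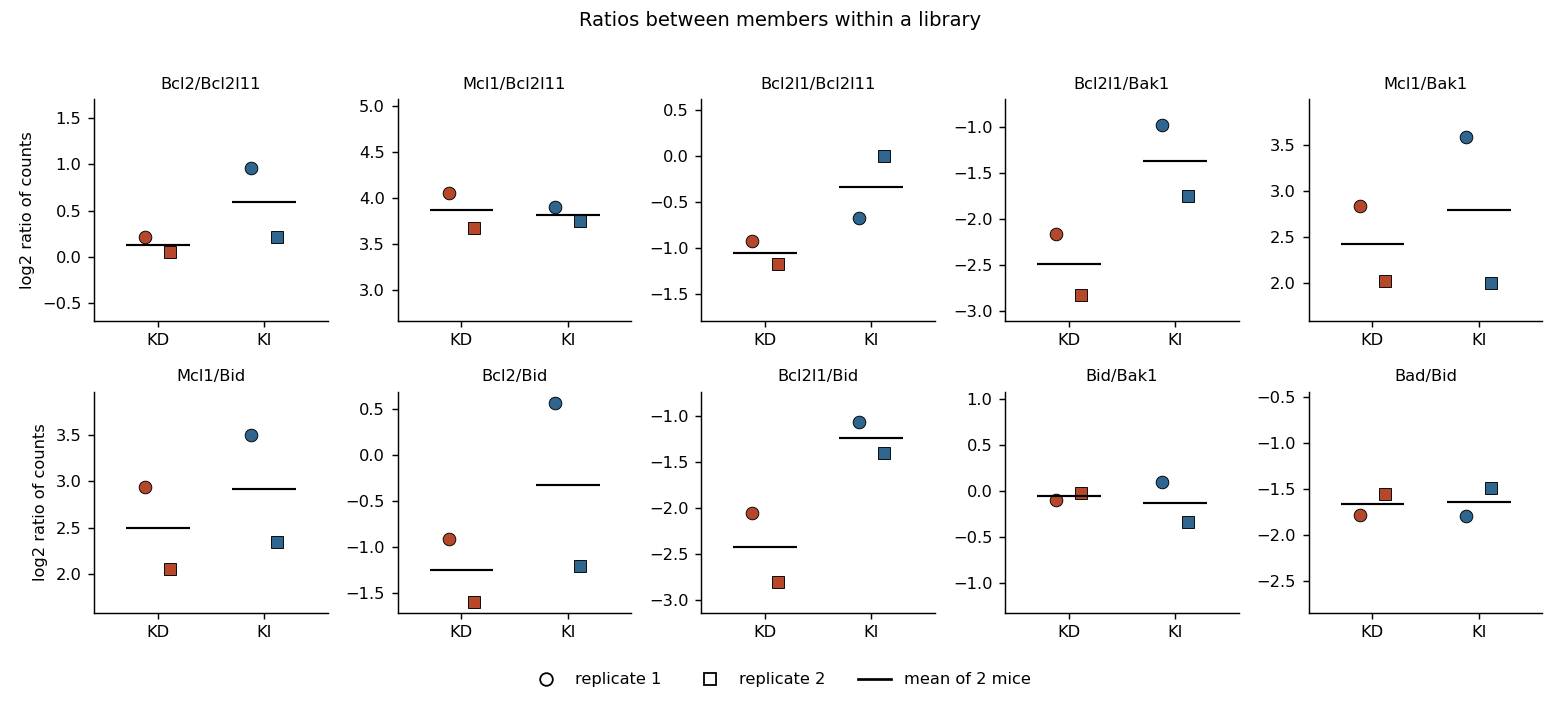
Log2 ratio of the counts of 2 members in each library, with 1 point per mouse, a line at the mean of a genotype and the same height of axis in every panel. The ratios of Bcl2l1 to Bcl2l11, to Bak1 and to Bid were lower in both KD mice, and the other 7 overlapped. The ratio to Bid was chosen after the values were seen, and its direction was fixed by that choice.

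The 2 mice of a genotype also differed from each other. Mcl1 took 68.0% of the 9 members' counts in KD replicate 1 and 56.7% in KD replicate 2, and 68.6% in KI replicate 1 and 56.9% in KI replicate 2. The widest of their 95% Wilson intervals ran from 66.9% to 70.2%, in KI replicate 1. Bak1 took 9.52% and 13.9% in KD, against 5.68% and 14.2% in KI, and Bad 2.58% and 4.69% in KD, against 1.75% and 4.0% in KI. The first replicate was thus higher in Mcl1 and lower in Bak1 and Bad in both genotypes. On the log2 CPM scale the difference of replicate 1 from replicate 2 had the same sign in both genotypes for 6 of the 8 tested members, where 66.4% of all tested genes did so. Hrk had opposite signs, and the Bcl2l1 difference was 0.00 in KI. Replicate number also went with sex-linked genes. Xist lay at 0.425 and 846 CPM in KD replicates 1 and 2, and 13.0 and 785 CPM in KI replicates 1 and 2. What the mice with the same number shared beyond this is not stated in the labels, and its part in the members' values was not tested.

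Other genes of the pathway were described from 4 lists, none of which had a member past the test over all genes. In the rest of the BCL2 family 10 of 15 genes were tested, 3 with a positive and 7 with a negative fold change, where 44.5% of all tested genes were positive. In both KD libraries 0 of the 10 were higher and 4 lower, beside 14.5% and 23.5% of all tested genes. The median log2 fold change was -0.40, beside -0.06 over all tested genes, but it was -0.02 without KI replicate 2 and -0.01 with library size only. Bcl2l2, the survival gene for BCL-W, lay at 17.4 and 20.7 CPM in KD, against 20.9 and 39.9 CPM in KI (-0.68 ± 0.42, SE). Bcl2l15 lay at 0.708 and 0.173 CPM against 4.17 and 1.31 CPM, with KI replicate 1 the highest. It had 10 and 2 counts in KD and met the filter's minimum of 0.946 CPM in its KI libraries alone. Its place among the 4 lower genes was thus partly fixed by the filter. Bnip3l, a mitophagy receptor that red cell precursors use to clear mitochondria, lay at 83.1 and 92.1 CPM in KD against 90.0 and 157 CPM in KI. The 3 measured copies of Bcl2a1, an inducible survival gene of granulocytes, held at most 0.356 CPM in a library. Reads that align to more than 1 place were counted for no gene, so these near-identical copies are uncertain.

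Caspases and apoptosome genes were mostly on the other side. Among 12 tested genes the fold change was positive in 9 and negative in 3, and 7 were higher and 2 lower in both KD libraries, with a median of 0.35. Over all tested genes 44.5% were positive, 14.5% higher and 23.5% lower in both KD libraries. Casp6, an executioner caspase, lay at 9.91 and 8.47 CPM in KD, against 3.48 and 1.31 CPM in KI (log2 1.98 ± 0.68, SE; unadjusted p = 0.0302 in the edgeR model, adjusted p = 0.518). Casp8, the initiator that cleaves BID, lay at 81.3 and 89.3 CPM in KD, against 66.1 and 58.5 CPM in KI (0.45 ± 0.27). Both genes lay higher in both KD libraries, and neither passed the adjusted test.

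Inhibitors of caspases and their mitochondrial antagonists had 5 positive and 2 negative fold changes among 7 tested genes, all between -0.23 and 0.31, with a median of 0.21. In both KD libraries 2 of the 7 were higher and 1 lower. Over all tested genes 44.5% were positive, and 14.5% were higher and 23.5% lower in both KD libraries. Birc3, an inhibitor of apoptosis induced by NF-kB, lay at 89.7 and 77.7 CPM in KD, against 74.4 and 61.0 CPM in KI, and Birc6 at 589 and 494 CPM against 446 and 431 CPM, whereas Birc2 lay at 33.3 and 30.5 CPM in KD, against 39.9 and 34.8 CPM in KI. Of 17 tested regulators of the members 14 were positive and 3 negative, 5 were higher and 0 lower in both KD libraries, where the shares over all tested genes were 44.5% positive, 14.5% higher and 23.5% lower. Their median was 0.15 and ran from 0.08 to 0.59 over the alternatives. Pim1, a kinase that phosphorylates BAD, lay at 124 and 117 CPM in KD, against 88.6 and 76.4 CPM in KI (0.55 ± 0.26). Usp9x, the enzyme that removes ubiquitin from MCL1, lay at 222 and 212 CPM in KD, against 174 and 96.7 CPM in KI, and Huwe1, the ligase that adds it, at 440 and 403 CPM in KD, against 313 and 344 CPM in KI. The gene that stabilises MCL1 and the one that marks it for decay thus lay on the same side.

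**Figure D4:**
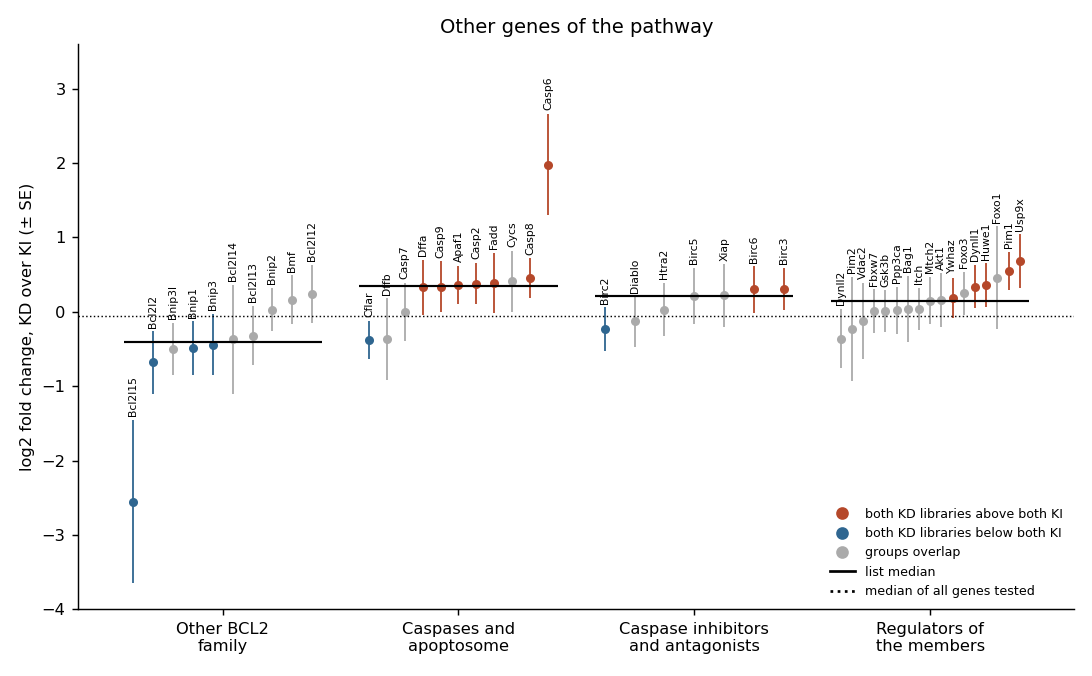
Log2 fold change, KD over KI, with its standard error for tested genes of the 4 lists of other pathway genes, coloured by whether both KD libraries lay above or below both KI libraries, with the median of each list (line) and of all tested genes (dotted). Casp6 at 1.98 and Bcl2l15 at -2.55 stand farthest from 0, and 0 of these genes passed the adjusted test. Bcl2l15 met the filter's minimum in its KI libraries alone.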

How the data were processed

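RNA counts of 4 libraries were used, 1 per mouse and 2 per genotype. The values are raw counts per Ensembl gene as deposited by the authors, and the submitters' processing notes list HTSeq, TopHat2 2.0.10, DESeq and SAMtools. Annotation release and strand setting were not stated there. Summary entries that name no gene, 93.2% to 97.9% of each library's total, were left out. Symbols matched 40254 of the 41214 gene IDs. The 8 chromatin libraries are not analysed here, since the 1616 columns of their promoter tables name neither antibody nor mouse.

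In R 4.3.3 the filterByExpr function of edgeR 4.0.16 kept 13822 genes, which were scaled by TMM (factors 1.19 and 1.13 in KD, 0.957 and 0.778 in KI) and tested with glmQLFit and glmQLFTest for genotype, with no other term (Benjamini-Hochberg, threshold 0.05). A positive log2 fold change means higher in KD, the standard error is the fold change divided by the square root of F, and intervals use the total degrees of freedom. DESeq2 1.42.0, limma-voom 3.58.1, other scalings, filters, a replicate block and leaving out each library (with the same genes tested) were alternatives. The correlation across genes of replicate 1 minus replicate 2 between the genotypes was 0.269, and the labels do not say that the numbers pair mice.

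The members and lists were chosen with earlier results of these data known. All members are named, and of each list the 3 tested genes with the lowest p, except 1 gene that is not reported here. Levels per transcript length were planned and could not be computed, because transcript lengths were not used here. Promoter sequences are from RefSeq, GRCm38.p6. Intervals and floors of counts cover counting error only.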

Additional observations from a re-analysis of the deposited data

How the results depend on the processing

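The members' calls did not depend on the setting, except that Hrk passed without KI replicate 2. The estimates of Bcl2l1, Bak1, Bid and Bad kept their sign in 13 of 13 alternatives each, and Hrk in 12 of the 12 that tested it. Leaving out each library in turn gave -0.97 to 0.53 for Bcl2, -0.14 to 0.75 for Mcl1, -0.14 to 0.60 for Bcl2l11 and -3.96 to -1.15 for Hrk, and Bcl2l11 was also negative, at -0.02, with upper quartile factors and with at least 5 CPM in 2 libraries. Of the 8 members, those higher in both KD libraries numbered 3 with RLE factors (19.1% of all genes), 2 with upper quartile factors (11.0%), 3 with library size only (42.3%) and 3 without the 10 highest loci that are not protein-coding (22.6%). Members lower in both numbered 1 with library size only (12.8%). That scaling moved the median log2 fold change of all genes to 0.37, against -0.06 with TMM, and its members' values are to be read against it. Library size alone does not correct for composition, and composition differed between the genotypes. Gm10800, Gm26870 and Gm10801, among those loci left out, together took 19.4% and 21.2% of the gene counts in KD, against 39.0% and 44.4% in KI. Genes called higher and lower in KD were 29 and 140 with no low-count filter, and 5 and 137 with DESeq2. They were 3 to 149 and 29 to 774 as each library was left out, which leaves a lone mouse in 1 genotype. With the replicate block 7 genes were called lower and 0 higher, and no member's call changed. The list medians kept their sign in 13 of 13 alternatives, apart from the caspase inhibitors, which had 1 of the opposite sign (-0.04), but not their size: the regulators' median moved in 9 of 13 (0.08 to 0.59), that of the other BCL2 family in 2 (to -0.02 and -0.01) and that of the caspases in 1 (0.78 with library size only). Depth limits Bik and Hrk: the floor of 3 counts was 0.696 CPM in KI replicate 1.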

Other observations

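Of the pathway genes in the counts 7 were too low for the test. Sept4, whose product ARTS antagonises XIAP, lay at 0.142 and 0.346 CPM in KD, against 4.17 and 0.593 CPM in KI, and Trim17, a ligase for MCL1, at 0.00 and 0.173 CPM in KD, against 1.16 and 0.356 CPM in KI. Bok, an effector related to Bak1, lay at 0.142 and 0.00 CPM in KD, against 1.16 and 0.00 CPM in KI. The other 4, Bcl2l10 and the copies Bcl2a1a, Bcl2a1b and Bcl2a1d, held at most 0.356 CPM in any library. Sept4, Trim17 and Bok were highest in KI replicate 1, at 18, 5 and 5 counts. The other 4 held too few reads for a highest library to be named, with at most 1 count of Bcl2l10 or Bcl2a1a in a library.

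Of the Y-linked genes, Kdm5d lay at 48.0 and 0.259 CPM in KD replicates 1 and 2, and at 48.2 and 0.712 CPM in KI replicates 1 and 2. Ddx3y lay at 1.27 and 0.0864 CPM in KD replicates 1 and 2, and at 77.5 and 0.237 CPM in KI replicates 1 and 2. KD replicate 1 thus had Kdm5d at the level of KI replicate 1 and little Ddx3y.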
